A study of Homo sapiens with 6 samples.

Results

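Notch signalling passes between touching cells. A ligand of the Jagged or Delta-like family on one cell pulls on a NOTCH receptor on its neighbour, proteases then cut the receptor, and its intracellular part enters the nucleus, binds the DNA-binding protein RBPJ and switches on target genes. The best known targets encode the HES and HEY proteins, short-lived basic helix-loop-helix repressors that hold back neuronal differentiation, and in the developing brain this keeps radial glia and neural stem cells from differentiating. In glioblastoma, Notch receptors and ligands are studied for their part in keeping stem-like tumor cells.

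The data described here are 10 genes of this pathway in the human glioblastoma line U251 (U251MG): the receptors NOTCH1, NOTCH2 and NOTCH3, the ligands JAG1, JAG2 and DLL1, and the HES/HEY genes HES1, HES4, HEY1 and HEY2. They were taken by symbol from 28395 genes counted by bulk RNA-sequencing, and the symbols were matched through the NCBI gene identifiers of the count table. The libraries came from unedited WT cells (3 libraries) and from NUAK2-CR cells (3 libraries), in which the kinase gene NUAK2 had been targeted with CRISPR-Cas9 delivered by lentiviral vectors. According to the methods of the study, edited cells were sorted into single wells and grown as clones; the labels do not say which clone gave each library, so the p-values cover the spread between these libraries and may not cover the spread between clones. The question the comparison addresses is how transcripts differ between the edited and the unedited cells.

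Counts summed to between 35310946 and 55574081 in the WT libraries and between 29648445 and 33776712 in the NUAK2-CR libraries. NUAK2 transcripts, a check of the group labels, were at 52.6% of the WT mean in NUAK2-CR (log2 fold change -0.93, standard error (SE) 0.11, adjusted p = 1.8e-05, edgeR's quasi-likelihood test), with no overlap between the groups. This level does not measure the share of edited gene copies. The paper reports the deletion of NUAK2 by immunoblot and qPCR in independent U251 clones. Among the 20 tested genes nearest to NUAK2 on chromosome 1, 12 were called lower and 1 higher. Their median was -0.42 on the log2 scale, and NUAK2 lay 0.51 below it. How much of the lower NUAK2 level came from the edit itself was not tested. The labelled cell type was checked against 7 glial and glioblastoma markers. VIM, NES, SOX2, CD44, GFAP and S100B were detected in every library and all 6 were lower in NUAK2-CR, while OLIG2 had no count. In normalized counts, which are counts scaled to a common library size, the sum of this list ran from 321700 to 355700 in WT and from 135900 to 142100 in NUAK2-CR. Markers of other cell types summed to far less: 251.7 to 338.6 against 185.5 to 218.4 for 6 endothelial genes, 1490 to 1715 against 2805 to 3014 for 6 mural genes, 860.2 to 971.7 against 242.5 to 290.6 for 5 immune genes, and 1117 to 1126 against 2135 to 2155 for 5 neuronal genes. Members of a list did not all go one way: PECAM1 and VWF were called higher and KDR lower among the endothelial genes, PDGFRB and CSPG4 higher and RGS5 and KCNJ8 lower among the mural genes. PECAM1 and VWF rest on few reads. PECAM1 was counted 2, 0 and 0 times in WT against 12, 14 and 14 in NUAK2-CR, and VWF 38, 15 and 12 against 53, 46 and 48. Both tested immune genes were lower, and 2 of the 5 neuronal genes were higher and none lower. These counts of markers, the glial list included, compare with 26.3% of all tested genes called higher in NUAK2-CR and 28.2% called lower. The defining markers AIF1 (microglia) and OLIG2 were at 0, and PTPRC (all leukocytes) had at most 3 counts in a library. The part of these shifts in the Notch results was not tested, and in bulk RNA fewer cells of a type and less RNA per cell cannot be told apart.

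Of the 10 genes, 9 had enough counts to be tested. Among them, NOTCH3 was 5.46-fold higher and HEY2 7.28-fold lower in NUAK2-CR than in WT, JAG1 and JAG2 were each at less than 50% of WT, HES1 was 1.15-fold higher, and NOTCH1, NOTCH2, HES4 and HEY1 did not pass the test. With an adjusted p-value under 0.05, 5 of the 9 genes were called, or 55.6%, which is near the 54.5% of all 14873 genes tested that were called in this comparison. Of the 5, 2 were higher in NUAK2-CR, where 26.3% of all tested genes were called higher, and 3 were lower, where 28.2% were called lower. The share called is thus no result about these genes as a group, and the single genes are described by their own values. Differentially expressed genes (DEGs), with an absolute log2 fold change over 2 as well, numbered 2 of the 9: NOTCH3 (1.89% of all tested genes were DEGs with higher expression) and HEY2 (2.83% were DEGs with lower expression, and 4.72% were DEGs in either direction). The 2 groups of libraries had no overlap in 5 of the 9 genes, against 61.4% of all tested genes. The median log2 fold change was -0.06 over the 9 genes and -0.01 over all genes tested.

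**Figure D1:**
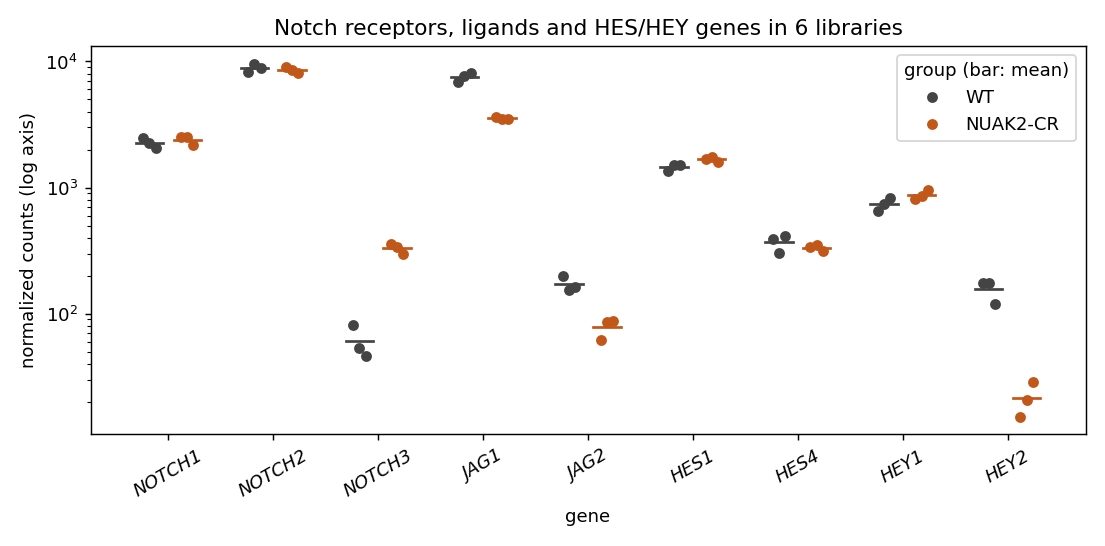
Normalized counts (log axis) of 9 Notch pathway genes in each of 3 WT and 3 NUAK2-CR libraries; points are libraries and bars are group means, and DLL1, which had at most 1 count in a library, is left out. NOTCH3 is higher and JAG1, JAG2 and HEY2 are lower in all 3 NUAK2-CR libraries, while the points of NOTCH1, NOTCH2 and HES4 overlap between the groups.

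NOTCH3, the receptor best known from vascular smooth muscle and pericytes, was the receptor that passed the test. The gene (NCBI gene 4854) is at 15159038 to 15200995 on chromosome 19 (build GRCh38, as for all positions given). WT replicates 1, 2 and 3 gave 81.7, 53.1 and 46.2 normalized counts for it, against 354, 338 and 295 for NUAK2-CR replicates 1, 2 and 3. The lowest NUAK2-CR library was thus well above the highest WT library, and WT replicate 1 was the highest of the WT libraries. The mean rose from 60.3 ± 18.8 to 329 ± 30.4 (SD, n = 3 each), which is 2.42 as a log2 fold change (SE 0.21, adjusted p = 1.34e-06, edgeR's quasi-likelihood test). Without WT replicate 1 the log2 fold change was 2.73, and over all alternatives it stayed between 2.26 and 2.73.

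NOTCH2 and NOTCH1 were the abundant receptors, and neither differed detectably. NOTCH2, a main receptor of glial and neural stem cells (gene 4853, chromosome 1, 119911553 to 120069662), had 8330, 9625 and 8827 normalized counts in WT against 9033, 8565 and 8080 in NUAK2-CR. These groups overlapped, and the log2 fold change was -0.06 with a 95% interval from -0.22 to 0.10 (adjusted p = 0.518, edgeR's quasi-likelihood test). Human-specific partial copies of NOTCH2 with nearly the same sequence, NOTCH2NLA, NOTCH2NLB and NOTCH2NLR, also lie on chromosome 1 and had mean WT levels of 230, 134 and 78.2 normalized counts. Reads from the shared exons may have been split among them or left out by the counting, so values of all 4 genes are uncertain to that extent. NOTCH2NLA fell (log2 fold change -0.53, adjusted p = 0.0223), and the values of NOTCH2NLB (-0.34, adjusted p = 0.175) and NOTCH2NLR (-0.61, adjusted p = 0.0519) did not pass the threshold. NOTCH1, the founding member of the family in mammals (gene 4851, chromosome 9, 136494433 to 136546048), had 2485, 2269 and 2042 normalized counts in WT against 2540, 2516 and 2159 in NUAK2-CR. The log2 fold change was 0.08 with a 95% interval from -0.11 to 0.28 (adjusted p = 0.451).

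To compare receptors with each other, normalized counts were divided by the length of the Ensembl canonical transcript in kb. By level per kb, NOTCH2 stood at 781 ± 57.2 (SD, n = 3) in WT, NOTCH1 at 237 ± 23.1 (SD, n = 3) and NOTCH3 at 6.95 ± 2.17 (SD, n = 3) normalized counts per kb. In NUAK2-CR the order was the same, with 749 ± 41.7 (SD, n = 3), 251.3 ± 22.3 (SD, n = 3) and 37.9 ± 3.50 (SD, n = 3). The ranges of the receptors did not overlap within a group. Of the summed receptor level per kb, NOTCH3 made up 0.943%, 0.563% and 0.537% in the WT libraries and 3.72%, 3.70% and 3.52% in the NUAK2-CR libraries. NOTCH2 was the main receptor in both groups, with a mean share of 76.2% in WT and 72.2% in NUAK2-CR. The log2 ratio of NOTCH3 to NOTCH2 counts within a library was -6.66, -7.49 and -7.56 in WT and -4.67, -4.66 and -4.77 in NUAK2-CR. So the receptor with the largest difference was also the least abundant of the 3 in both groups.

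**Figure D2:**
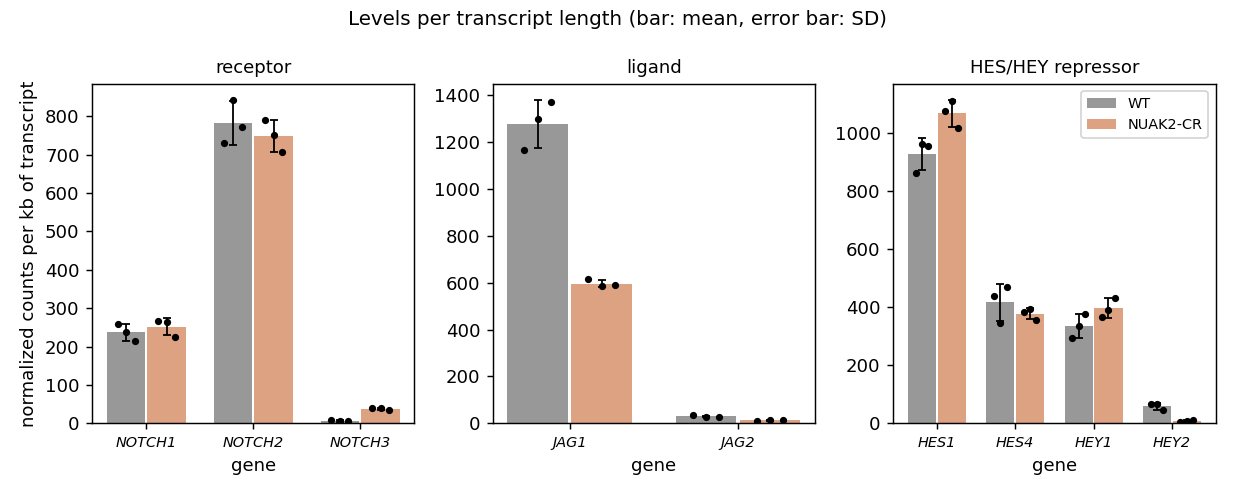
Normalized counts per kb of canonical transcript for the receptors, the Jagged ligands and the HES/HEY genes; bars are means of 3 libraries, error bars are SD and points are libraries. NOTCH2, JAG1 and HES1 are the highest of their groups in both WT and NUAK2-CR, and the bar of JAG1 in NUAK2-CR has 46.7% of its height in WT.

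Both Jagged ligands fell, while the Delta-like ligand DLL1 was hardly detected. JAG1, the ligand mutated in Alagille syndrome (gene 182, chromosome 20, 10637684 to 10673999), had 6927, 7694 and 8123 normalized counts in WT against 3644, 3468 and 3497 in NUAK2-CR. All 3 NUAK2-CR libraries were below all WT libraries and lay close together. The mean went from 7582 ± 606 to 3536 ± 94.5 (SD, n = 3 each), or 46.7% of WT. This is a log2 fold change of -1.10 (SE 0.07, adjusted p = 1.22e-07, edgeR's quasi-likelihood test), and it stayed between -1.15 and -1.05 over the alternatives.

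JAG2, a second Jagged ligand with roles in limb and immune development (gene 3714, chromosome 14, 105140995 to 105168776), was expressed at a much lower level. It had 198, 154 and 162 normalized counts in WT against 62.2, 85.6 and 87.8 in NUAK2-CR, again with no overlap. The mean went from 172 ± 23.2 to 78.6 ± 14.2 (SD, n = 3 each), a log2 fold change of -1.13 (SE 0.21, adjusted p = 0.000592). Per kb of transcript, JAG1 made up 97.7% of the summed level of JAG1, JAG2 and DLL1 in WT and 97.7% in NUAK2-CR, so the shares of the ligands were alike while their total was lower. Within a library, the log2 ratio of JAG1 to NOTCH2 counts was -0.27, -0.32 and -0.12 in WT and -1.31, -1.30 and -1.21 in NUAK2-CR.

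DLL1, a Delta-like ligand of neural progenitors (gene 28514, chromosome 6, 170282206 to 170291078), was counted 0, 1 and 0 times in the WT libraries and once in each NUAK2-CR library. Both groups were under 3 counts per library, the number that a count of 0 still allows at this depth by counting error alone. It did not pass the filter on low counts, and no fold change is given.

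**Figure D3:**
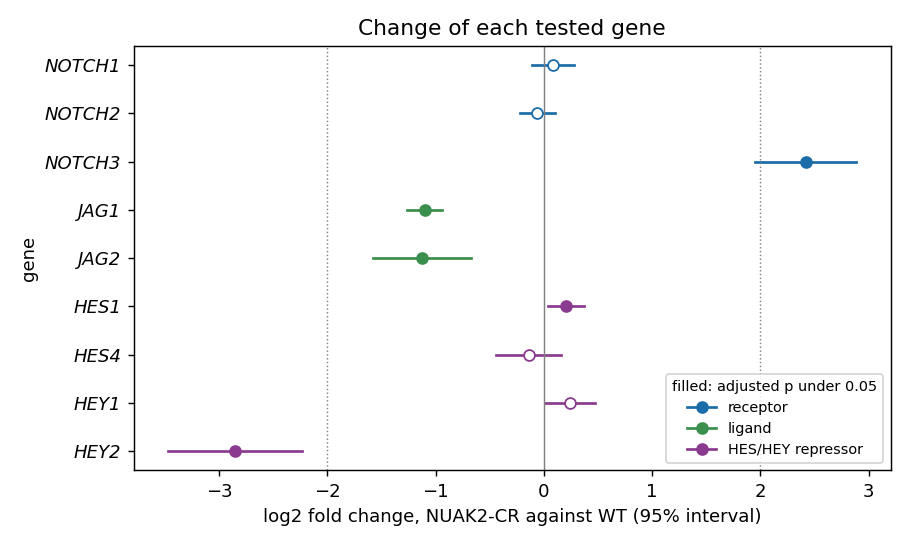
Log2 fold change of NUAK2-CR against WT for the 9 tested genes, with 95% intervals derived from the F statistic of edgeR's quasi-likelihood test. Filled points had an adjusted p-value under 0.05 and dotted lines mark a log2 fold change of -2 and 2. The interval of NOTCH3 lies above 1.95, that of HEY2 below -2.23, and those of NOTCH1, NOTCH2 and HES4 include 0.

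Of the 4 HES/HEY genes, HEY2 fell, HES1 rose slightly, and HES4 and HEY1 did not pass the test. HEY2, a repressor known from heart and arterial development (gene 23493, chromosome 6, 125749632 to 125761269), had 174, 174 and 120 normalized counts in WT against 15.2, 20.5 and 28.5 in NUAK2-CR. The highest NUAK2-CR library was far below the lowest WT library. Its mean fell from 156 ± 30.9 to 21.4 ± 6.70 (SD, n = 3 each), or 13.7% of WT. The log2 fold change of -2.85 (SE 0.28, adjusted p = 3.74e-06, edgeR's quasi-likelihood test) lay between -3.12 without NUAK2-CR replicate 3 and -2.64 without NUAK2-CR replicate 1. In raw counts the NUAK2-CR libraries held 12, 17 and 26 reads of this gene, so that group rests on few reads.

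HES1, the most general Notch target and a repressor of its own gene (gene 3280, chromosome 3, 194136148 to 194138732), had 1361, 1518 and 1503 normalized counts in WT against 1696, 1749 and 1605 in NUAK2-CR. The groups did not overlap, but the distance was small. The mean rose from 1461 ± 86.7 to 1683 ± 72.7 (SD, n = 3 each), 1.15-fold, with a log2 fold change of 0.21 (SE 0.08, 95% interval 0.04 to 0.37, adjusted p = 0.0382, edgeR's quasi-likelihood test). The call was lost without the filter on low counts (adjusted p = 0.0615) and when any library other than WT replicate 2 was left out, with adjusted p-values from 0.0519 to 0.136. The direction was the same under every alternative.

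HES4, a HES1-like gene absent from the mouse genome (gene 57801, chromosome 1, 998964 to 1000097), had 388, 305 and 415 normalized counts in WT against 339, 350 and 316 in NUAK2-CR. These values overlapped, and the log2 fold change was -0.14 with a 95% interval from -0.44 to 0.16 (adjusted p = 0.414, edgeR's quasi-likelihood test). HEY1, a close relative of HEY2 (gene 23462), had 649, 741 and 829 normalized counts in WT against 805, 861 and 953 in NUAK2-CR. WT replicate 3 overlapped with the NUAK2-CR libraries, and the log2 fold change was 0.24 (SE 0.11, 95% interval 0.01 to 0.48, adjusted p = 0.0719). Without WT replicate 3 it was 0.33 with an adjusted p of 0.0316, past the threshold.

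Per kb of canonical transcript, HES1 was the highest HES/HEY gene, with means of 927 ± 55.04 for WT and 1069 ± 46.2 for NUAK2-CR (SD, n = 3 each). HES4 and HEY1 followed, with 417 ± 64.8 and 337 ± 40.9 (SD, n = 3 each) in WT and 379 ± 19.4 and 397 ± 34.0 (SD, n = 3 each) in NUAK2-CR. Their ranges overlapped in both groups, so their order was not resolved with this length, and it depended on the length used. HEY2 was the lowest, with 59.4 ± 11.8 (SD, n = 3) and 8.16 ± 2.55 (SD, n = 3). Its share of the summed HES/HEY level per kb was 3.98%, 3.86% and 2.48% in the WT libraries and 0.317%, 0.41% and 0.597% in the NUAK2-CR libraries. The log2 ratio of HEY2 to HES1 counts within a library was -2.96, -3.12 and -3.64 in WT and -6.75, -6.38 and -5.79 in NUAK2-CR, with a mean difference of -3.07. The ratio of HES4 to HES1 was -1.99 on average in WT and -2.33 in NUAK2-CR, and the WT libraries spread more widely (SD 0.28 against 0.01).

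These target genes are shown with the promoter sequence that carries the consensus bound by RBPJ, since they hold the same letters and had different values. RefSeq promoter sequences of GRCh38.p14, from 250 bases before to 50 bases after the start site, were at hand for 8 of the 10 genes and were not for DLL1 and HEY1. The heptamer GTGGGAA, searched on both strands, was in 3 of the 8: HES1, HES4 and HEY2. It was in 6.28% of all 27305 RefSeq promoters of this length, and the shorter TGGGAA, which it contains, was in 24.3%. The promoters of NOTCH1, NOTCH2, NOTCH3, JAG1 and JAG2 held neither. The stretches below are written 5′ to 3′ on the strand of the gene, and capitals mark the heptamer, its hexamer or the reverse complement of the heptamer.
HES1, chr3:194136043-194136095, plus strand, heptamer from -85 to -79: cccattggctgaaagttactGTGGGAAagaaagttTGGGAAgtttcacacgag
HES4, chr1:1000142-1000194, minus strand, heptamer from -77 to -71: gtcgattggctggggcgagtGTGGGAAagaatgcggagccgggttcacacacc
HEY2, chr6:125749399-125749451, plus strand, reverse complement from -213 to -207: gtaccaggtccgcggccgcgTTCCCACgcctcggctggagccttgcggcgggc
HEY2, chr6:125749608-125749637, plus strand, heptamer from -4 to 3 across the start site: cggccgagcagagttgcggcGTGGGAAaga
In HES1 a second TGGGAA followed the heptamer, from -70 to -65. The HES1 and HES4 stretches, set beside each other at the heptamer without gaps, were identical at 27 of 53 bases (50.9%). The N-box CACNAG, the type of site that HES proteins bind, was found on either strand at 4 places in the HES1 promoter and nowhere in those of HES4 and HEY2, and 38.0% of all promoters held it. So the heptamer was present in the gene that fell most, in the gene with a small rise and in one with no detectable change. A match of letters is not a measured binding site, and no binding was measured in these libraries.

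The wider pathway was read from a list of 73 other genes, of which 71 were in the count table and 58 were tested. At the same threshold 24 were called higher in NUAK2-CR, 16 were called lower and 18 did not pass; 69.0% were called, against 54.5% of all genes. Their median log2 fold change was 0.12. The DEGs were 3 of the 58, or 5.17%, near the 4.72% of all genes: CNTN1, DNER and TLE2. CNTN1 and DNER are among the proteins described as non-canonical NOTCH ligands, and TLE2 is a Groucho-type corepressor recruited by HES proteins.

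CNTN1, contactin-1, a glycolipid-anchored axonal adhesion protein, had 2674, 2311 and 2662 normalized counts in WT against 85.1, 83.2 and 71.4 in NUAK2-CR. It fell to 3.13% of WT (log2 fold change -5.00, SE 0.11, adjusted p = 1.54e-11, edgeR's quasi-likelihood test). DNER, a transmembrane protein of neurons with EGF-like repeats, went the other way, with 860, 882 and 1055 normalized counts in WT against 4873, 4993 and 4836 in NUAK2-CR (log2 fold change 2.40, SE 0.09, adjusted p = 6.43e-10). EGFL7, a secreted protein of blood vessels that binds NOTCH receptors, fell from 189 ± 36.6 to 67.9 ± 24.2 (SD, n = 3 each), a log2 fold change of -1.47 (adjusted p = 0.000506). DLK2 rose (log2 fold change 0.95, adjusted p = 0.000228), so 2 of the 4 tested non-canonical ligands were higher and 2 lower. Among the canonical ligands outside the 10 genes, DLL3 did not pass (log2 fold change 0.29, 95% interval -0.31 to 0.88, adjusted p = 0.396). DLL4 had between 0 and 7 counts in a library and was not tested, and the receptor NOTCH4 had no count.

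Of 7 further HES/HEY genes, 3 were tested. HES6, which counteracts HES1 and favours neuronal differentiation, rose from 498 ± 87.9 to 1125 ± 172 (SD, n = 3 each) normalized counts, a log2 fold change of 1.17 (SE 0.14, adjusted p = 1.64e-05, edgeR's quasi-likelihood test). HES2 rose as well (0.73, adjusted p = 0.0326), and HES7 did not pass (-0.30, adjusted p = 0.487). HES5, the other HES gene typical of neural stem cells, had no count in any library, as did HEYL. NRARP, a direct target that feeds back on the nuclear complex, had 195, 196 and 198 normalized counts in WT against 317, 257 and 278 in NUAK2-CR. It rose with no overlap (log2 fold change 0.53, SE 0.14, adjusted p = 0.00695). The other target listed, DTX1, had 0.55 with an adjusted p of 0.351. NEUROG2, a proneural gene that HES proteins repress, was not tested; it was counted 22, 11 and 6 times in the WT libraries against 2, 0 and 2 times in the others.

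The counts by role given here concern few genes each and are set beside the shares of all tested genes, 26.3% called higher and 28.2% called lower; none is read as a result about a role. Of the 6 tested enzymes of receptor glycosylation, 4 were higher and 2 lower (54.5% of all genes were called). Those of the Fringe family (LFNG, MFNG and RFNG) set which ligands a receptor answers to. LFNG, Lunatic fringe, fell from 3245 ± 317 to 1779 ± 52.5 (SD, n = 3 each) normalized counts, a log2 fold change of -0.87 (SE 0.08, adjusted p = 1.94e-06, edgeR's quasi-likelihood test). RFNG, Radical fringe, fell by 0.39 on the log2 scale (adjusted p = 0.0103). MFNG, Manic fringe, rose by 1.73 (SE 0.48, adjusted p = 0.00845), but it was read seldom: 8, 10 and 4 times in the WT libraries, 17, 18 and 19 times in the others.

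Of 9 genes of receptor cleavage, 3 were higher and 4 lower, or 77.8% called against 54.5% of all genes. PSEN2, a catalytic subunit of gamma-secretase, had a log2 fold change of -0.84 (adjusted p = 1.30e-05), and APH1B, another subunit, 0.82 (adjusted p = 0.00136). Among 3 tested ubiquitin ligases of ligands, MIB1 and MIB2 rose and NEURL1B fell. NEURL1B, a Neuralized-type ligase, had 3989, 3404 and 3256 normalized counts in WT against 1548, 1699 and 1699 in NUAK2-CR (log2 fold change -1.11, SE 0.09, adjusted p = 4.44e-07).

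Among 8 genes of receptor trafficking and turnover, 2 were higher, 1 was lower and 5 did not pass. The lower one was DTX4, a Deltex ubiquitin ligase, with a log2 fold change of -1.78 (SE 0.33, adjusted p = 0.000583) that ranged from -2.13 to -1.42 over the alternatives. Of the 8 genes of the nuclear activation complex, 5 were higher and 2 lower, or 87.5% called against 54.5% of all genes. RBPJ, the DNA-binding core of that complex, had 2380, 2524 and 2182 normalized counts in WT against 3282, 2988 and 3344 in NUAK2-CR (log2 fold change 0.44, SE 0.08, adjusted p = 0.00038). Of 11 tested corepressors, 3 were higher, 3 lower and 5 did not pass. TLE2 had 271, 211 and 232 normalized counts in WT against 1298, 1375 and 1287 in NUAK2-CR (log2 fold change 2.46, SE 0.11, adjusted p = 2.715e-09).

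**Figure D4:**
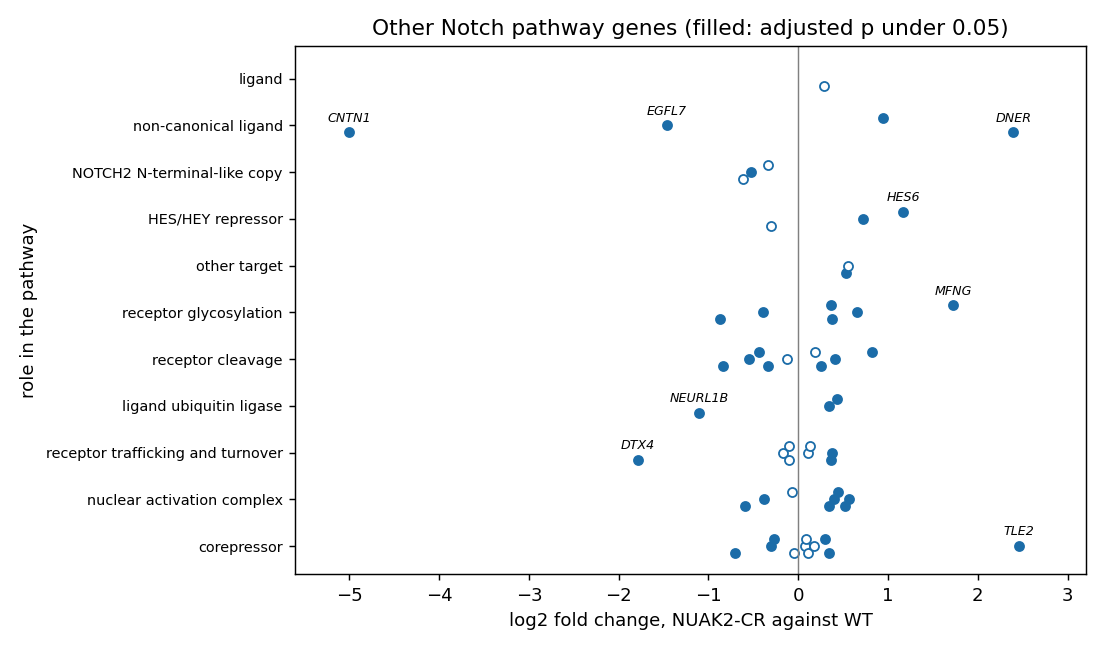
Log2 fold change of NUAK2-CR against WT for the 58 tested genes of the wider Notch pathway, by role; filled points had an adjusted p-value under 0.05, and names are given where the absolute log2 fold change was also over 1. CNTN1 at -5.00 stands far to the left, DNER at 2.40 and TLE2 at 2.46 far to the right, and most other genes lie within 1 of 0.

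Each gene was also set beside the 20 tested genes nearest to it on its chromosome. The neighbours of NOTCH3 had a median log2 fold change of -0.12, those of JAG1 0.31, those of JAG2 0.29 and those of HEY2 0.18. The 4 genes with the largest differences thus differed in sign from the median of their neighbours. All 4 medians were larger in size than the median log2 fold change of all tested genes, which was -0.01. The neighbours spanned 1.73, 9.52, 0.845 and 6.48 megabases in that order, and a regional cause was not tested. Less the median of its neighbours, each gene had a value of 2.54, -1.41, -1.42 and -3.02, in the same order. The genes next to HEY2 were HDDC2 (-0.18) and NCOA7 (0.40), and those next to JAG1 were SLX4IP (0.23) and BTBD3 (0.14). All neighbours of JAG1 ranged from -1.53 (PAK5) to 4.75 (SNAP25-AS1). Of the 20 neighbours, 9 of JAG1, 10 of JAG2, 7 of HEY2 and 4 of NOTCH3 were called higher. These counts compare with 26.3% of all tested genes called higher. Called lower were 2, 2, 2 and 3 of them in that order, against 28.2% of all tested genes. The neighbours of NOTCH2 and HES4, both on chromosome 1, had medians of -0.45 and -0.35. In each case 12 of 20 were called lower, against 28.2% of all tested genes. Relative to these medians the values of NOTCH2 and HES4 were 0.39 and 0.21. HES1 on chromosome 3 was at 0.05 and HEY1 on chromosome 8 (79764010 to 79767767) at 0.16 relative to their neighbours.

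**Figure D5:**
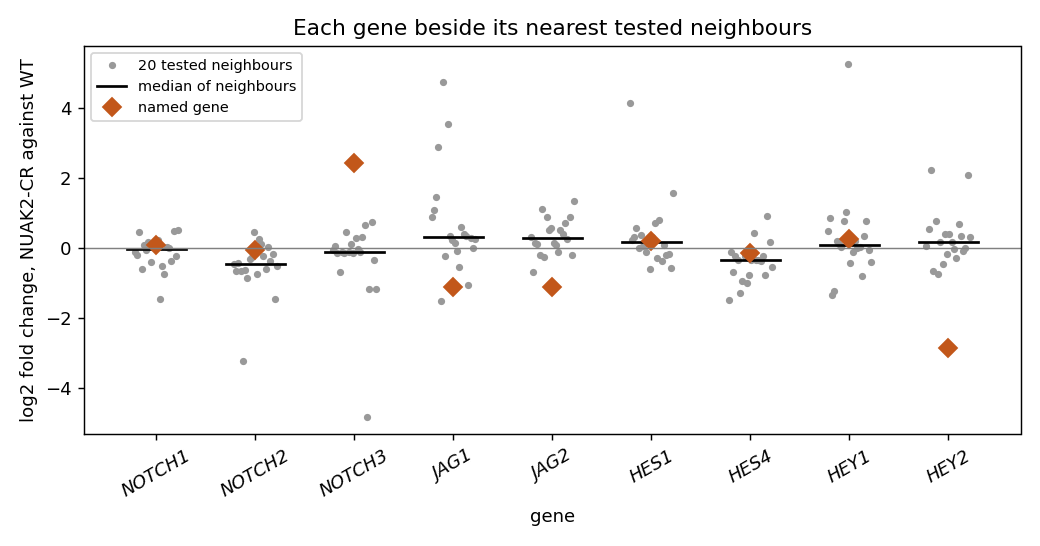
Log2 fold change of each of the 9 genes (diamonds) and of its 20 nearest tested neighbours on the chromosome (points; black line, their median). NOTCH3 lies 2.54 above its neighbours' median and HEY2 3.02 below, whereas NOTCH1, HES1 and HEY1 lie 0.11, 0.05 and 0.16 above it.

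The spans of some of the 10 genes, introns included, overlap those of other annotated genes. In GENCODE v44, genes on the opposite strand overlap NOTCH1, NOTCH2, JAG1, DLL1 and HEY2 (for HEY2, the antisense RNA HEY2-AS1). Genes on the same strand overlap NOTCH1, NOTCH3, JAG1, JAG2 and DLL1. Per the methods of the study the counting used default parameters, which in featureCounts ignore strand. Reads from a stretch where exons overlap would thus not have been told apart by strand, and whether there were such reads was not examined.

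As a description, the genes with the most similar pattern over the 6 libraries were listed for the gene of each role with the largest difference. Pearson's r of log2 CPM (counts scaled for library size) with NOTCH3 was highest for EHD2 (above 0.99), PGAM2 (0.9995) and SIM2 (0.9986). With JAG2 it was highest for CASZ1 (0.9997), NDUFAF1 (0.999) and RABGGTA (0.9983), and with HEY2 for AMPH (0.9995), GBP5 (0.9994) and AKR1C3 (0.9978). The 6 points fall into the 2 groups, so any gene that differs between them with little spread has a high r: 171 genes had r over 0.99 with NOTCH3, 38 with JAG2 and 69 with HEY2.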

How the data were processed

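RNA from 3 WT and 3 NUAK2-CR libraries of U251 cells was sequenced as poly(A) RNA with a stranded kit. Per the labels and methods, the authors used bcl2fastq, Trimmomatic, HISAT2 with hg38 and featureCounts, the last 3 with default parameters; their versions and the gene annotation are not given in the sources used here. The deposited values are raw counts per gene, and they were checked to be whole, with library totals that differ. Symbols were found for 27745 of 28395 identifiers in the RefSeq table of GRCh38.p14.

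Counts were analysed in R 4.3.3 with edgeR 4.0.16 (filterByExpr, TMM, glmQLFit and the quasi-likelihood F test, prior count 0.125), and p-values were adjusted by Benjamini-Hochberg over all 14873 genes in the fit. Standard errors were derived as the absolute log2 fold change divided by the square root of its F statistic. The 95% intervals were built from them with the t distribution. To give normalized counts, each library was scaled to the mean of the effective library sizes. DEGs were genes below 0.05 in adjusted p-value whose log2 fold change was beyond 2 in either direction. Tested on simulated counts of this comparison with 14804 genes, the fit called 187 of the 200 genes that had been changed, and 21 of the 14604 that had not. Alternatives were DESeq2 1.42.0, other scalings and filters, a prior count of 2, a fold threshold of 1, a replicate block and leaving out each library. Log2 ratios used a pseudocount of 0.5. Transcript lengths came from GENCODE v44. Named genes were the 10 genes, NUAK2, pathway genes past the adjusted p-value threshold with a log2 fold change over 1 in either direction, and HES5, HEYL, NRARP, DLL3, DLL4 and RBPJ; other pathway genes, neighbours and markers named were picked after their values were seen, to illustrate their role. NOTCH2NLC and CIR1, also listed, were not analysed here. A listed gene is not reported here by name. The 10 genes and the lists were chosen with earlier results of these data known. Tables and figures were made in Python 3.11.15 (pandas 2.3.3, matplotlib 3.10.9).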

Additional observations from a re-analysis of the deposited data

How the results depend on the processing

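The 3 libraries per group limit the precision, and HEY2 in NUAK2-CR, JAG2 and MFNG rest on few reads. So do NOTCH3 in WT, with 123, 55 and 43 counts, and 2 pathway genes in NUAK2-CR. These were DTX4, with 36, 14 and 51 counts, and EGFL7, with 59, 34 and 80. Over 12 alternatives the number of the 9 genes called stayed between 4 and 5. The number of DEGs among them was 2, or 4 with an absolute log2 fold change over 1 (JAG1 and JAG2 added). Over all genes DEGs numbered 702, or 2062 with the lower fold threshold and 339 with at least 10 counts in every library. Of 259 values of single genes under an alternative, 250 kept their direction and their side of the threshold, 7 were no longer called (all HES1), 2 were newly called (both HEY1), and 0 reversed. MFNG could not be tested with at least 10 counts in every library. With the exon union of all GENCODE transcripts as the length, 5 of 6 orders were the same. In NUAK2-CR, HES4 then came before HEY1, with means of 299.6 against 159.1 normalized counts per kb. In WT these means were 330.3 against 134.8, and with this length the ranges of HES4 and HEY1 overlapped in neither group.

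The labels number the libraries 1 to 3 in both groups without naming what the numbers share. Same-numbered libraries had correlations of deviations of 0.04, -0.04 and 0.05, and not every library correlated best with its own number, so the numbers do not pair them. With a replicate block, HES1 had an adjusted p of 0.0515 and HEY1 one of 0.0388, and 8167 genes were called in place of 8107; among the 9 genes 5 were called in both fits. The cause was not tested.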
